A study of Mus musculus and Rattus norvegicus with 4 samples.

Results

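The genes examined here build and service the muscle cell surface: the caveolins Cav1, Cav2 and Cav3, the cavins Cavin1, Cavin2, Cavin3 and Cavin4, dysferlin (Dysf), amphiphysin 2 (Bin1) and Ehbp1l1. These 10 genes were taken by name from 21887 protein-coding mouse genes, and each MEF2A peak went to the protein-coding span nearest to it, up to 100 kb away. MEF2A, a myocyte enhancer factor that switches on muscle genes, was mapped by ChIP-exo, in which an exonuclease trims the immunoprecipitated DNA towards the edges of the bound protein. The library came from C2C12 cells, an immortalised mouse skeletal myoblast line, with no genetic change named in the labels, kept for 48 h in low-serum differentiation medium. The labels call the cells myoblasts, which was not checked against markers, since no expression was measured in this library. The series also holds a MEF2A library of primary rat cardiomyocytes and a normal rabbit IgG library of each cell type, which were not analysed here. With 1 library per group there was no replicate, read depth is unknown, and every value below describes that library.

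Caveolae are flask-shaped pits of the plasma membrane. Caveolins are inserted in the membrane and cavins coat it from the cytoplasm, and without either family the pits do not form normally. In skeletal muscle they buffer stretch, hold signalling proteins and take part in the growth of the transverse (T) tubules, the inward membrane tubes that carry the action potential to the calcium store. Bin1 bends membrane into such tubes, and dysferlin, a calcium-binding membrane protein, acts in the resealing of a torn membrane.

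MEF2A peaks were assigned to 4 of the 10 genes (40%), namely Cav2, Cavin4, Dysf and Bin1, where 7.73% of all protein-coding genes had one. The remaining 6 genes, Cav1, Cav3, Cavin1, Cavin2, Cavin3 and Ehbp1l1, had none. Of the 4, Cavin4 held the strongest peak, at its start, and it was the only one of the 8 members with an annotated start site in the table used whose start site lay under a peak. The other 3 genes had weaker peaks that lay inside the gene or between 9.56 and 69.7 kb away. Proximity does not show that MEF2A regulates a gene.

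Cavin4 (gene 68016, also known as MURC) encodes the cavin restricted to muscle, and lies on the plus strand at chr4:48663514-48673492 (mm10). Its peak, at chr4:48663142-48663546, was 405 bp wide and had a deposited score of 359, which ranked 195 of the 2797 peaks in the list. Scores ran from 50.08 to 3100 with a median of 77.0, so the Cavin4 peak was among the highest 6.97%. The peak began 372 bases before the annotated start site and ended 32 bases after it, counting the first transcribed base as 0. Only 33 of its bases were therefore inside the Cavin4 span. The neighbouring gene Tmeff1, on the same strand, ends 10 bp from the other edge of the peak, so the peak filled nearly all of the interval between the genes, and its distance alone does not tell them apart. No other peak lay within 409.4 kb.

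**Figure D1:**
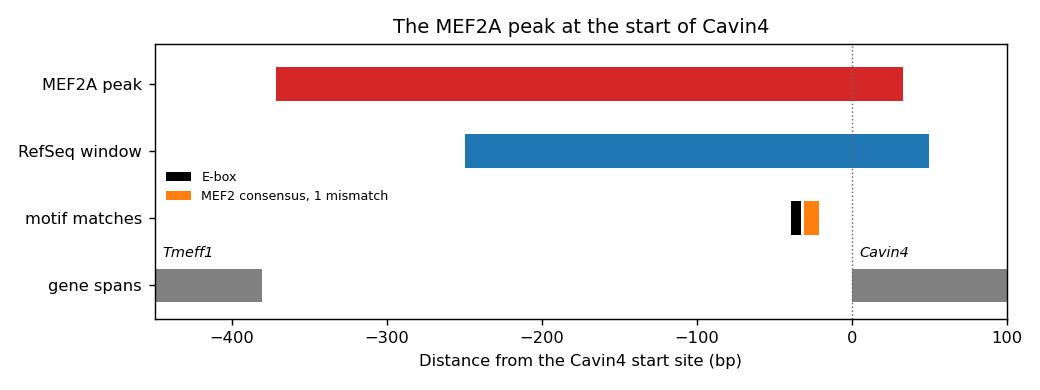
The start of Cavin4, with distance from the start site in bp on the horizontal axis and, from top to bottom, the MEF2A peak, the RefSeq window, motif matches inside that window and the spans of Tmeff1 and Cavin4. The peak runs from -372 to 32 and covers the E-box and the match with 1 mismatch to the MEF2 consensus. Tmeff1 ends 10 bp from its far edge, as a difference of positions.

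The sequence under the Cavin4 peak is shown because this is the only promoter with a peak among the 8 members with a promoter window, and that of Cav3, the main muscle caveolin, is shown as another muscle gene of the caveola, without one. RefSeq gives 300 bases around the start site (GRCm38.p6, 250 before the start and 50 from it on), which covered 283 bases, or 69.9%, of the Cavin4 peak. The first line is the covered part of the peak, chr4:48663264-48663546, and the second the Cav3 window, chr6:112459255-112459554, both on the plus strand. Capitals mark each E-box, CANNTG, and each match to the MEF2 consensus with at most 1 mismatch.
Cavin4: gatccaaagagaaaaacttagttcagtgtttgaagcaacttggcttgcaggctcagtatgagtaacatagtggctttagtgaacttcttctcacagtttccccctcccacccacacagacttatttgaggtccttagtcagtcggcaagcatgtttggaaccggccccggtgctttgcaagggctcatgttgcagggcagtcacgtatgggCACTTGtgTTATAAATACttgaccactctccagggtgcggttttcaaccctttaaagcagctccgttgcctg
Cav3: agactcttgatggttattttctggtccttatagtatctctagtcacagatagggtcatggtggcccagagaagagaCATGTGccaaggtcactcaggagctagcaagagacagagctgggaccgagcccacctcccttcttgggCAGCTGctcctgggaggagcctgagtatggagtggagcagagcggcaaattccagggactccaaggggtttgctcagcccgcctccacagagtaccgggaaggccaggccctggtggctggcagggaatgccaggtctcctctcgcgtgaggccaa

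In the Cavin4 sequence the capitals mark the E-box CACTTG, at -39 to -34 from the start site, and TTATAAATAC, at -31 to -22, which differs from the MEF2 consensus at 1 of its 10 positions. No window of the 8 members found in the table held the exact consensus on either strand. Of the 65 genes with a peak over their window, 13.8% held the exact consensus and 47.7% a match with at most 1 mismatch. Among all 17492 protein-coding genes with a window, 3.27% held the exact consensus and 26.5% a match with at most 1 mismatch, so a match like that of Cavin4 was common. Both marked sites of Cav3 are E-boxes, CATGTG and CAGCTG. An E-box stood in the windows of 6 of 8 members, beside 72.1% of all genes. The first 122 bases of the Cavin4 peak, and the sequence under the other member peaks, were not used here. A match describes letters and does not show that a protein binds there. TTATAAATAC holds the letters TATAAATA shortly before the start site. Whether it is a MEF2 site or another promoter element was not tested.

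A peak over the promoter window, as at Cavin4, was found for 0.372% of the 17492 genes. Its score ranked 11 among the 65 such genes, and a score of at least 300 there was reached by 12 genes (0.0686%). The windows of the members differed in base composition. Cavin4 (48.7% G+C) and Cavin2 (43.3%) lay below the median of all windows, 56.3%, and the other members' windows lay above it, up to 68.0% at Ehbp1l1. Besides Cavin4, Cavin2 was the only one of these 8 members with a match of at most 1 mismatch to the MEF2 consensus, and it had no peak.

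The plasma membrane repair gene Dysf (gene 26903) spans chr6:84008361-84211060 on the plus strand, 202.7 kb, and was assigned 2 peaks. The stronger one, at chr6:84247208-84247371 with a score of 136 (rank 721), lay 36.1 kb beyond the end of the gene, towards Cyp26b1, whose span begins 360.4 kb from Dysf. The weaker, at chr6:84046593-84046682 with a score of 52.8 (rank 2663), lay inside the span, 38.0 kb after the first and 27.3 kb after the second annotated start site. It is a narrow peak of 90 bp, and its score is close to the lowest in the list. Dysf is by far the longest of the genes, 14.7 times the median length of the other 9.

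Bin1 (gene 30948) spans chr18:32376618-32435740, 59.1 kb, and also had 2 peaks. The first, at chr18:32380380-32380517, scored 98.8 (rank 1044) and lay inside the span, its first base 3.76 kb from the lower-coordinate end. The second, at chr18:32445297-32445460, scored 81.6 (rank 1300) and lay 9.56 kb beyond the higher-coordinate end. Both scores were above the median of the list and below 100. The promoter table used here held no entry for Bin1, so the strand and start site were not used. Having 2 or more peaks, as Dysf and Bin1 did, was found for 1.96% of protein-coding genes.

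Among the caveolins the peaks were few and distant. Cav2, which in many cells forms complexes with Cav1 (gene 12390, chr6:17281185-17289130, plus strand), was assigned a peak of score 60.25 (rank 2029) at chr6:17211333-17211473. This peak lay 69.7 kb before the Cav2 start site and 94.9 kb before the span of Cav1, the main caveolin of non-muscle cells (gene 12389, chr6:17306335-17341328, plus strand). The same peak is thus inside the 100 kb limit for both genes, which lie 17.2 kb apart, and went to Cav2 because it is nearer. The long noncoding RNA gene D830026I12Rik was nearer still, at 5.64 kb, and took the peak when noncoding genes could be assigned. Cav3, whose product forms most caveolae of mature muscle (gene 12391, chr6:112459505-112472872, plus strand), had no peak within 100 kb. The nearest, of score 112, was 389.1 kb away inside the span of Srgap3.

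**Figure D2:**
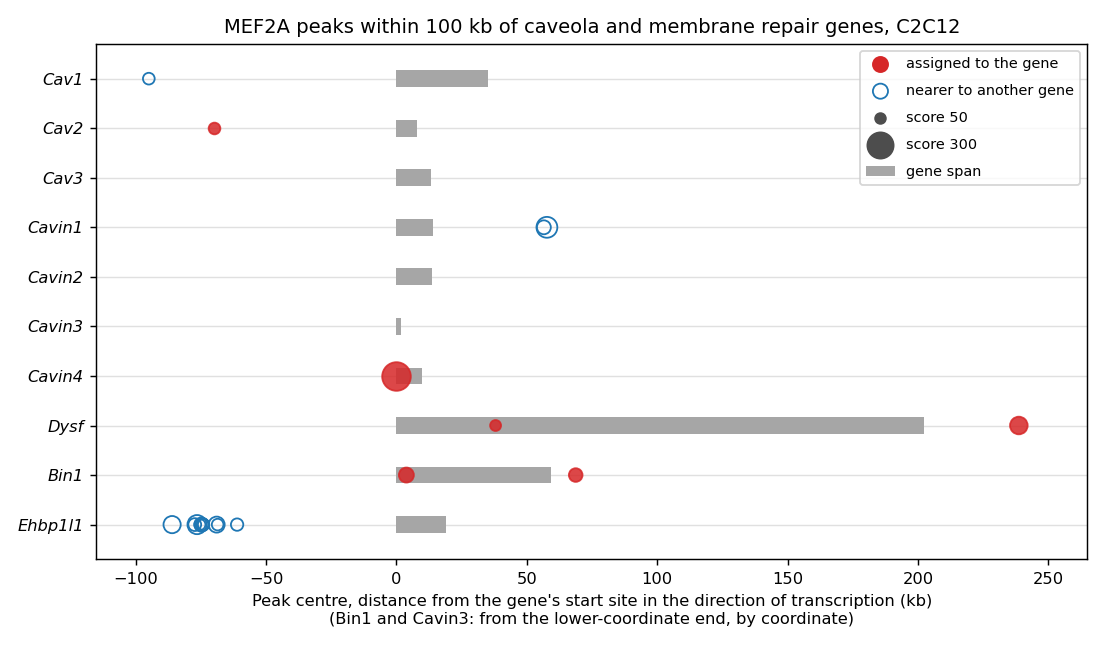
MEF2A peaks within 100 kb of each member, with one row per gene and the distance of the peak centre from the gene's start site in kb on the horizontal axis (for Bin1 and Cavin3, from the lower-coordinate end). Grey bars are gene spans, filled red circles are peaks assigned to the gene, open blue circles are peaks nearer to another gene, and circle area is proportional to the score. The Cavin4 peak of score 359 sits at the start site, and Cav3, Cavin2 and Cavin3 have no circle.

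The other cavins had no assigned peak. Cavin1, the cavin without which caveolae are lost (gene 19285, chr11:100956736-100970617, minus strand), had peaks of score 190.6 (rank 458) and 85.2 (rank 1226) at 43.7 and 42.5 kb from its span. They lay 0.885 kb apart at chr11:100912734-100913051 and chr11:100913936-100914189, inside the span of the transcription factor gene Stat3, which took both. The stronger of the pair outscored every member peak other than that of Cavin4. Cavin2, which helps to shape the caveolar membrane (gene 20324, chr1:51289126-51302960, plus strand), was 236.2 kb from its nearest peak (score 72.3). Cavin3, a cavin that binds protein kinase C delta (gene 109042, chr7:105480616-105482197), was 3.63 Mb from its nearest peak (score 109), and 97.4% of protein-coding genes had a peak nearer than that. Among the cavins the muscle-restricted one was thus the only one with an assigned peak, and with 1 library no test of that difference was possible.

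Ehbp1l1, a partner of Rab8 and Bin1 in membrane traffic of epithelial cells (gene 114601, chr19:5707369-5726576, minus strand), had no assigned peak although 11 peaks lay within 100 kb. They formed a run from 60.7 to 85.5 kb before the gene, with scores from 52.1 to 160.5. With noncoding genes included, all 11 were nearest to Malat1, an abundant nuclear noncoding RNA (chr19:5795690-5802672), and 6 overlapped its span. None of the 11 had another member within 100 kb.

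**Figure D3:**
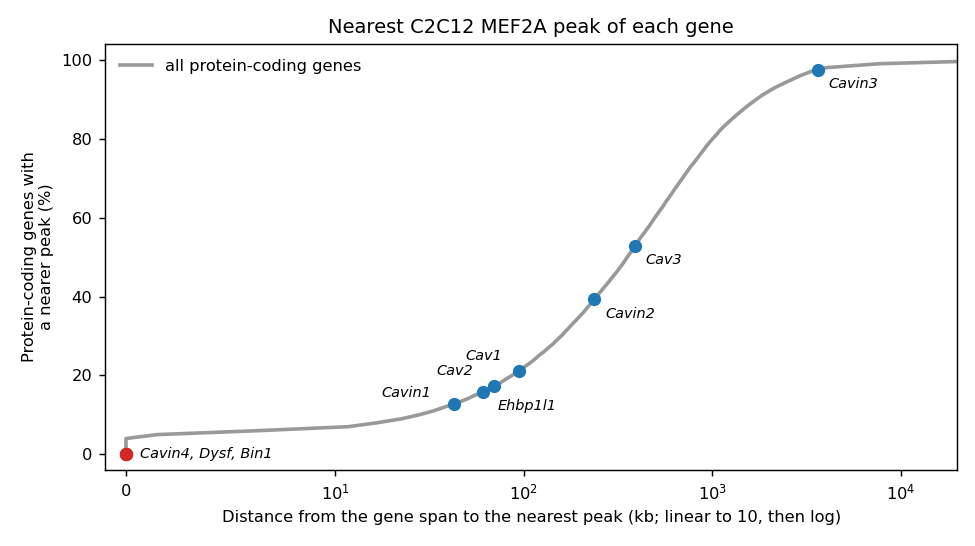
Distance from each gene span to the nearest C2C12 peak in kb (horizontal axis, linear to 10 and then logarithmic) against the percentage of protein-coding genes with a nearer peak. Dots are the members and the grey line is all protein-coding genes. Cavin4, Dysf and Bin1 sit at 0 kb, Cavin1, Ehbp1l1, Cav2 and Cav1 between 42.5 and 94.9 kb, and Cavin3 at 3626 kb.

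Over the 10 genes, the median distance to the nearest peak was 65.2 kb, against 354.0 kb over all protein-coding genes. A peak overlapped the span of 3 members, Cavin4, Dysf and Bin1, where 4.57% of all protein-coding genes had one. Counting every peak within 100 kb, also those nearer to another gene, 7 of the 10 had a peak, where 22.0% of all protein-coding genes did. The members Cav3, Cavin2 and Cavin3 had none in that range. The rule's limit of 100 kb had Cav1 just inside it, at 94.9 kb, and Cavin2 as the first gene outside it, at 236.2 kb.

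The stretch of genome nearest to a gene (its span and its share of the gaps beside it, up to 100 kb a side) had a median of 104.4 kb over the members and 45.8 kb over all protein-coding genes. It was 313.4 kb for Dysf, 123.5 kb for Bin1, 110.2 kb for Cavin4 and 104.2 kb for Cav2. Among the 6 members with at least 100 kb, 4 had a peak, where 1101 of 6103 protein-coding genes in that class (18%) did. None of the 4 members under 100 kb had one, where 590 of 15784 such genes (3.74%) did. Cav1 (104.6 kb) and Cavin2 (145.8 kb) were the members of the larger class without a peak.

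The 6 member peaks ranked from 195 to 2663 of 2797 by score. In order of score they were those of Cavin4 (359), Dysf beyond its end (136), Bin1 inside (98.8) and beyond its end (81.6), Cav2 (60.25) and Dysf inside (52.8). Their median was 90.2, beside 77.0 for all 2797 peaks, and 4 of the 6 were above the median of all peaks. Scores of at least 100 were held by 2 of the 6, where 36.8% of all peaks had such a score. Their widths ran from 90 to 405 bp, beside a median of 144 bp for all peaks, and the Cavin4 peak was the widest. The deposited list gives no error for a score, so neighbours in this order cannot be told apart.

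How many members had a peak depended on the strength asked of it. Among peaks scoring at least 100, Cavin4 and Dysf, 2 of 10, had one, where 3.47% of all protein-coding genes did, and at 200 or more only Cavin4, 1 of 10, did (1.53% of all genes). A limit of 10 kb left Cavin4, Dysf and Bin1, 3 of 10, beside 5.75% of all genes, and a limit of 50 kb left the same 3, beside 7.13%. Those 3 also had a peak where noncoding genes could take one, beside 5.96% of all protein-coding genes. By the nearest end of a span it was the same 4 as before, beside 7.42%. With every peak of at least 100 within 100 kb, whichever gene was nearest, Cavin1, Cavin4, Dysf and Ehbp1l1, 4 of 10, had one, where 10.3% of all protein-coding genes did.

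**Figure D4:**
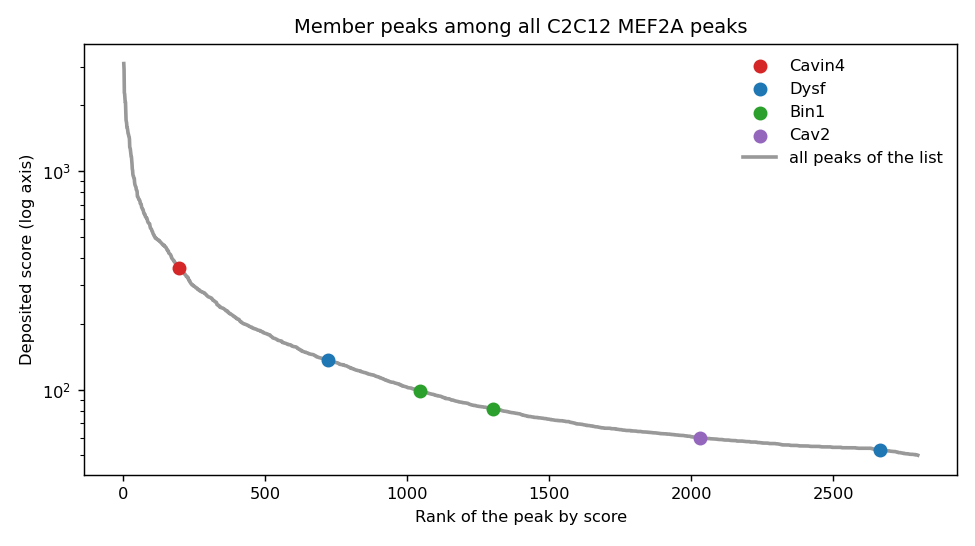
Deposited score (logarithmic vertical axis) against rank for all 2797 C2C12 peaks, drawn as a grey line, with the 6 peaks assigned to members as coloured dots. Cavin4 stands at rank 195, the Dysf, Bin1 and Cav2 dots run from rank 721 to 2663.

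Genes with related roles, in lists chosen for this purpose with earlier results of these data known, were set beside them. The percentages of these lists are therefore descriptions and were not tested. Of 32 ferlin, annexin and other membrane repair genes, 6 (18.8%) had an assigned peak, where 7.73% of all protein-coding genes did. Myof, encoding the dysferlin homologue myoferlin, had 2 peaks, the stronger of score 171 at 2.56 kb from its span. The centre of that peak was 147.2 kb after the nearest annotated start site. Trim72, which encodes MG53, a protein that gathers vesicles at membrane tears, held a peak of score 143. Its centre was at -0.56 kb from the nearest annotated start site, yet the peak lay inside the gene span, which begins before that start site. Anxa6, an annexin of the repair cap, held a peak of score 127, and Capn2, a calpain subunit, had one of 99.7 at 2.78 kb. Anxa11 and Anxa1 were the other genes of this list with a peak.

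Of 25 T-tubule and triad genes, 5 (20%) had an assigned peak, beside 7.73% of all protein-coding genes. Dnm3, a member of the dynamin family of membrane-cutting GTPases, had 5 peaks with a top score of 562. Its span is long (chr1:161982450-162478321), and the centre of the top peak was 344.6 kb after the nearest annotated start site. Synpo2, an actin-binding protein of the Z-disc (chr3:123076519-123236168), had 3 peaks with a top score of 517. The centre of its top peak was 97.6 kb after the nearest annotated start site. Trdn, encoding triadin of the junctional reticulum, had a peak of score 236 at 9.94 kb. Cacna2d1, a calcium channel subunit, was assigned 2 with a top score of 93.4, and Jph2, a junctophilin that ties the T-tubule to the reticulum, also had a peak.

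Of 22 caveola neck proteins and signalling partners, 3 (13.6%) had an assigned peak, beside 7.73% of all protein-coding genes. Insr, the insulin receptor, was assigned 2 peaks with a top score of 236. Nos1, the neuronal nitric oxide synthase of the muscle membrane, had 1 of 134, and Ror1, a receptor kinase, 1 of 53.9. None of the EHD, pacsin, flotillin or Popeye genes in that list had one. The stretch of genome nearest to a gene had a median of 69.3 kb over the caveola neck and signalling list. It was 73.5 kb over the membrane repair list and 85.2 kb over the T-tubule and triad list. Over all protein-coding genes it was 45.8 kb, and the percentages of the lists were not adjusted for it. The 40% of the caveola and membrane repair genes rests on 4 of 10 genes, which were chosen with these results known, so the difference from the 3 lists was not tested.

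**Figure D5:**
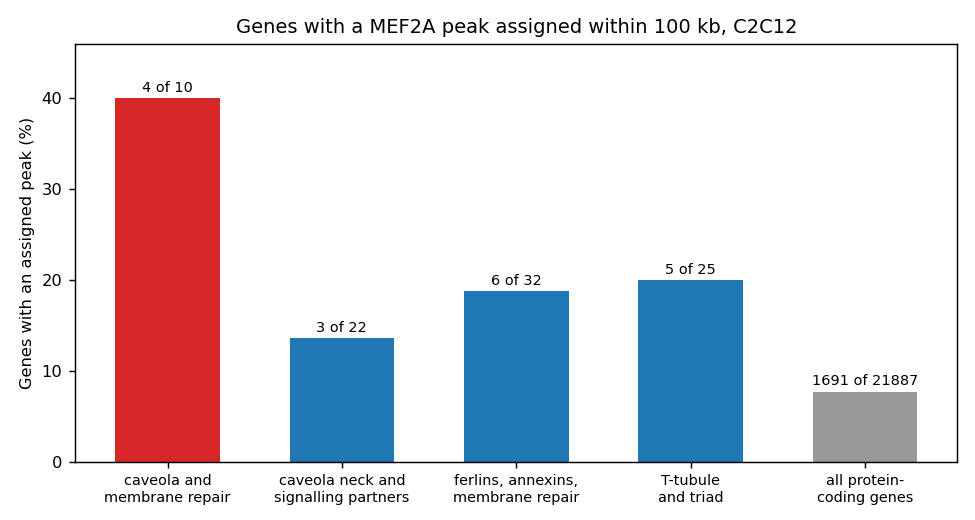
Percentage of genes with a C2C12 MEF2A peak assigned within 100 kb in the caveola and membrane repair genes, in 3 lists of related genes and in all protein-coding genes, with counts above the bars. The bars stand at 40%, 13.6%, 18.8%, 20% and 7.73%.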

How the data were processed

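MEF2A ChIP-exo was measured in 1 library of differentiating C2C12 cells; samples were grouped by antibody and organism in the titles. MACS 1.4.2, SAMtools, Picard, BWA 0.5.9 and CASAVA 1.7.0 are listed in the submitters' processing notes without settings, as are the builds rn5 and mm10. For this library the authors deposited a list of peaks, with a position and a score and no header. The score's scale, the use of the IgG library as control, and read depth are not given in the sources used here, and a peak's score is the authors' own, used only within the list.

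Starts were read as counting from 0 and printed counting from 1. Gene spans, and start sites with 300-base windows for 17492 genes, 8 of the 10 members among them, came from RefSeq GRCm38.p6, the assembly behind mm10. The table holds no exons, so introns and exons were not distinguished. Peaks inside several spans counted for each. Distances run between the nearest edges. Motifs were searched on both strands: the MEF2 consensus, the CArG box (in 1.76% of genes' windows, in no member), CANNTG, and TGANTCA (8.12% of genes, Cav2 among members). The search with 1 mismatch was added after the exact one. Assignment and motif search were tested on simulated data. No test was run, as there is 1 library. The members, lists and named genes were chosen with earlier results of these data known. All members, and up to 4 genes a related list by highest score, are given with values. All 79 symbols of the related lists were found, 1 through a synonym. Alternatives were score minimums, distance limits, merging of peaks and other ways of assignment. Python 3.11.15, numpy 2.4.6, pandas 2.3.3 and matplotlib 3.10.9 were used.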

Additional observations from a re-analysis of the deposited data

How the results depend on the processing

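The counts of 4 members and 6 peaks depended on the score and on the assignment. With scores of at least 100, 2 members had 2 peaks, and with scores of at least 200, 1 member had 1 peak, since fewer peaks enter. With every gene within 100 kb of a peak counted, 7 members had 19 peaks, because a peak can then go to several genes. Both counts stayed within 1.5 times under the remaining settings, namely limits of 10 and 50 kb, the nearest gene end, noncoding genes, merged peaks and, added after seeing the data, every gene within 100 kb at scores of at least 100. The highest Dysf score was 52.8 with the limit of 10 kb, in place of 136, because the stronger peak is farther away. Weak peaks have no replicate to recur in, and their depth is unknown. No paired analysis was possible because a single library stands for each group.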
